A study of Drosophila melanogaster with 7 samples.

Results

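HP1c regions were taken as all intervals of the list called from the HP1c chromatin immunoprecipitation, 2711 of the 29798 regions in the 5 lists of the series. The cells were of the S2 line, which was derived from Drosophila melanogaster embryos and grows in culture, and the labels name no treatment or genetic change. Rabbit antibodies against HP1c, Dsk2, WOC and ROW and a guinea pig antibody against Z4 gave 1 library each. The other 2 of the 7 samples were inputs, that is, libraries of chromatin that was not immunoprecipitated. HP1c was called against the input it shared with Dsk2, and WOC, ROW and Z4 against the other. The list holds a sequence name, a start and an end for each region and no height, score or read number, so the depth is unknown and how strongly any region was bound cannot be read from it.

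Heterochromatin protein 1 (HP1) proteins carry a chromodomain, which binds methylated histone tails, and a chromoshadow domain, through which they pair and bind partners. HP1a is the founding member and builds silent heterochromatin around centromeres, whereas HP1c lies mainly in euchromatin and is known in flies from active promoters. Its known partners include WOC and ROW, which have zinc fingers. Dsk2 is a ubiquilin, a class of proteins that bind ubiquitin. Z4, also with zinc fingers, marks the interbands of polytene chromosomes.

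With 1 library and no replicate, no test was made between groups of HP1c regions. The ranges after a value are exact 95% intervals. They treat regions as independent and cover counting only, although neighbouring regions share their surroundings and the library. Positions are in the dm3 build as deposited.

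HP1c regions were mostly short. The median width was 121 bp (116 to 129 bp), the quartiles were 43.5 and 220.5 bp, and the list covered 0.471 Mb in all. Regions of 1 bp numbered 50, those of 2 to 49 bp 736, and those of 50 to 99 bp 393. The class of 100 to 199 bp was the largest with 748 regions (27.6% of the list). A further 622 measured 200 to 499 bp, 143 measured 500 to 999 bp, and 19 were 1000 bp or wider. Of the covered bases, regions of 200 to 499 bp held 40.5%, those of 100 to 199 bp 23.4%, those of 500 to 999 bp 20.6%, those of 50 to 99 bp 6.27%, those of 1000 bp and over 5.37% and the 736 of 2 to 49 bp 3.83%.

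The share of short regions was higher in the HP1c list than in the others. Regions under 50 bp made up 29.0% of HP1c, 18.4% of Dsk2, 16.8% of WOC, 21.9% of ROW and 15.6% of Z4 regions. At the other end, 5.98% of HP1c regions reached 500 bp, against 14.8% of Dsk2, 11.2% of WOC, 30.1% of ROW and 32.6% of Z4 regions. Each list is 1 library of unknown depth, so protein and depth cannot be told apart in this comparison.

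Overlap with the other 4 lists did not rise steadily with the width of the HP1c region. HP1c regions without a shared base in any other list made up 24.0% of those of 1 bp (13.1 to 38.2%), 26.1% of those of 2 to 49 bp (22.9 to 29.4%) and 36.1% of those of 50 to 99 bp (31.4 to 41.1%). The share was highest at 100 to 199 bp, with 40.5% (37.0 to 44.1%), and was 19.6% at 200 to 499 bp (16.6 to 23.0%) and 4.20% at 500 to 999 bp (1.56 to 8.91%). All 19 regions of 1000 bp or more overlapped Dsk2 and WOC.

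Each of the other lists except ROW showed the same dip. Z4 overlapped 54.0% of HP1c regions of 1 bp, 49.0% of those of 2 to 49 bp, 45.5% at 50 to 99 bp and 37.4% at 100 to 199 bp, then 54.5% at 200 to 499 bp and 70.6% at 500 to 999 bp. The WOC share was 56.0% at 2 to 49 bp, 46.1% at 100 to 199 bp and 66.1% at 200 to 499 bp. For Dsk2, called against the same input as HP1c, it was 59.6%, 51.9% and 73.2% in the same classes. ROW covered 20.1% of HP1c regions of 2 to 49 bp, 23.1% of those of 100 to 199 bp, 38.7% of those of 200 to 499 bp and 56.6% of those of 500 to 999 bp.

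**Figure D1:**
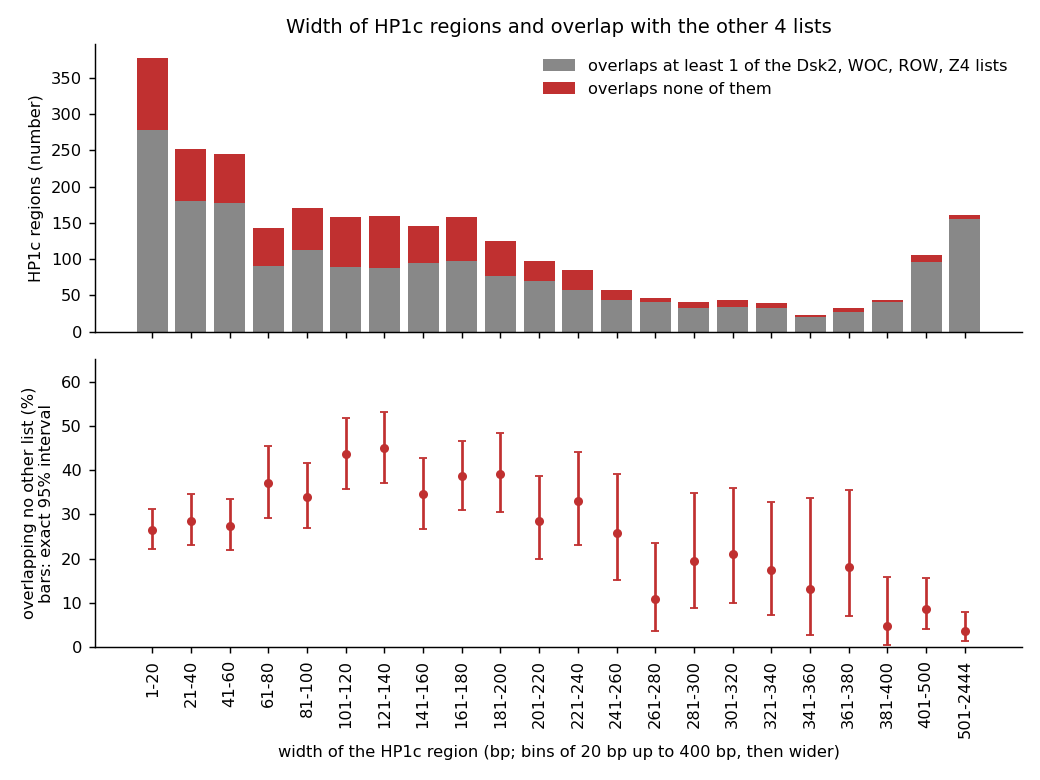
Upper panel, number of HP1c regions by width (bp, bins of 20 bp up to 400 bp and wider bins after that), divided into those overlapping at least 1 of the other 4 lists and those overlapping none. Lower panel, share overlapping none with its exact 95% interval: it is 26.5% in the bin of 1 to 20 bp, 45.0% in the bin of 121 to 140 bp and 3.73% above 500 bp.

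HP1c regions found in no other list were not mainly the narrowest calls. The 777 regions of this kind had a median of 110 bp (102 to 119 bp), and 39.0% of them measured 100 to 199 bp. The 612 regions shared with 3 lists had a median of 99.5 bp (89 to 111 bp), and the 539 shared with all 4 had 198 bp (179 to 219 bp). Of the unshared regions 26.3% were under 50 bp, against 35.6% of those shared with 3 lists and 15.2% of those shared with all 4. The strength of these regions was not tested.

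The 10 widest HP1c regions ranged from 1207 to 2444 bp, and each overlapped a Dsk2 and a WOC region. Of these, 8 overlapped ROW and 9 overlapped Z4. They lay on 2R (4 regions), 3R (3 regions), 3L (2 regions) and 2L (1 region), with none on X. Close neighbours were frequent among them: 7 had another HP1c region within 2000 bases, such as the region of 1799 bp on 3L (626786 to 628584), whose next HP1c region began after 315 bases. The region of 1470 bp on 2R (19599924 to 19601393) stood alone, with 45290 bases free on its left and 31513 on its right. Among isolated regions (defined in the next paragraph) it was also the widest, followed by 1207 bp on 3R (23083580 to 23084786), 1077 bp on 3L (22902660 to 22903736), 909 bp on 2R and 873 bp on X (3056193 to 3057065).

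HP1c regions were spaced very unevenly. The median gap, counted in bases between neighbours on the same sequence, was 14558 (13220 to 16340), while the mean was 56113. The quartiles of the gaps lay at 2511.5 and 52311 bases. Gaps of at most 2000 bases made up 22.6% of the gaps, and those of 100000 bases or more 14.7% (396 gaps). These values include sequences outside the large chromosome arms. On the large arms alone the median gap was 14248 bases and the mean 43872. For description, regions with another HP1c region within 2000 bases were called clustered, those with none within 10000 bases on either side isolated, and the rest intermediate. By this rule 1054 regions were clustered (38.9%, 37.0 to 40.7%), 694 were intermediate (25.6%) and 963 were isolated (35.5%, 33.7 to 37.4%). The limits are conventions: with 1000 bases as the limit 28.5% were clustered, and with 5000 bases 52.8%.

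The shortest gaps were the most frequent. Gaps of 300 to 399 bases numbered 109, those of 400 to 499 bases 86 and those of 500 to 599 bases 56. Farther out there were 35 gaps of 900 to 999 bases and 17 of 1900 to 1999 bases. No gap was shorter than 300 bases in any of the 5 lists, so closer calls were either joined or not made, and the sources used here do not say how they were treated.

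The share of short gaps in the HP1c list was close to that of Dsk2 and WOC, although HP1c had fewer regions. Gaps of at most 2000 bases made up 22.6% of HP1c, 23.6% of Dsk2, 26.0% of WOC, 48.6% of ROW and 36.2% of Z4 gaps. The median gap was 14558 bases in the HP1c list, 7535 in that of Dsk2, 6032.5 in that of WOC, 3627 in that of Z4 and 2150 in that of ROW, in the order of list length. When each other list was reduced to its 2711 widest regions, 38.9% of HP1c, 24.1% of Dsk2, 24.5% of WOC, 43.6% of ROW and 24.7% of Z4 regions were clustered. In that setting, chosen after the data were seen, the whole HP1c list with its narrow regions stands beside only the widest regions of the others.

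**Figure D2:**
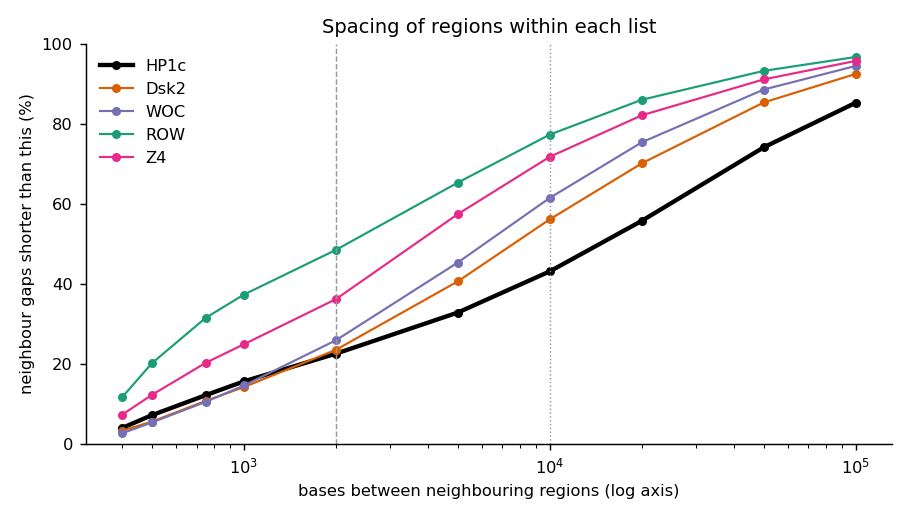
Share of gaps between neighbouring regions that are shorter than the length on the x axis (bases, log axis), for HP1c and the other 4 lists. The dashed line marks 2000 bases, where HP1c reaches 22.6% and Dsk2 23.6%, and the dotted line 10000 bases, where the HP1c curve lies below the other 4.

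The clustered regions formed 444 clusters, most of them pairs. There were 327 clusters of 2 regions, 85 of 3, 24 of 4, 5 of 5, and 1 each of 6, 7 and 11 regions. Pairs spanned a median of 1079 bp from outer edge to outer edge, and clusters of 3 spanned 2074 bp. Within a cluster the HP1c regions covered a median of 29.0% of the span. Counting each cluster once, the 2711 regions came from 2101 separate places.

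The largest cluster, on X from 7589071 to 7604227, had 11 members of 124 to 973 bp in 15157 bp. Dsk2, WOC and ROW each overlapped 9 of the 11 members and Z4 overlapped 8. The outermost member on the left (190 bp) overlapped no list, and the one on the right (198 bp) overlapped ROW alone. A second cluster on X, from 2186878 to 2195256, held 7 regions of 78 to 573 bp. Its 2 outermost members (78 and 216 bp) overlapped no other list, while the 5 between them all overlapped Dsk2.

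The third cluster by number lay on 3L from 14748138 to 14753456. Its 6 regions of 258 to 625 bp covered 47.5% of the span, and Dsk2 overlapped 4 of them, WOC 3, ROW 2 and Z4 1. Its widest member (625 bp) overlapped none. Of the clusters of 5, the tightest ran from 626009 to 630247 on 3L. It joined the region of 1799 bp to regions of 347, 9, 2 and 181 bp, of which those of 9 and 2 bp overlapped ROW and Z4 but neither Dsk2 nor WOC. Its outermost members, of 347 and 181 bp, both overlapped Dsk2, unlike those of the clusters on X. The next, on 2R from 7487911 to 7492843, had Dsk2 at all 5 members and ROW at 4.

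Members of a cluster often differed in what they overlapped. In 239 clusters every member overlapped at least 1 of the other lists, in 48 none did, and in 157 some did and some did not. Dsk2 was present at all members of 181 clusters, at some members of 186 and at none of 77. ROW was present at all members of 70, at some of 159 and at none of 215. Close neighbours were still more alike than distant ones in part of these measures. Only 1 of the 2 overlapped any list in 180 of 610 pairs within 2000 bases and in 610 of 1533 pairs over 10000 bases apart. Both or neither overlapped Dsk2 in 65.2% of the close and 55.6% of the distant pairs, and for ROW it was 67.7% and 68.6%. Such a share depends on how common the list is, and ROW overlapped 35.4% of clustered but 19.3% of isolated regions. The ROW values therefore cannot show whether close neighbours were more alike. Both members overlapped ROW in 128 of the 610 close and 115 of the 1533 distant pairs, which depends on the same difference. Widths also differed within a cluster, as the wider of 2 neighbours within 2000 bases was a median of 2.92 times as wide as the narrower, against 2.94 times for neighbours over 10000 bases apart. The Spearman correlation of neighbouring widths was 0.114 across the 610 close pairs and 0.0825 across the 1533 distant pairs, which is weak in both and given only as a description.

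Of the 4 other lists, ROW differed most between clustered and isolated HP1c regions. ROW overlapped 35.4% of clustered regions (32.5 to 38.4%), 29.0% of intermediate ones (25.6 to 32.5%) and 19.3% of isolated ones (16.9 to 22.0%). Dsk2 overlapped 62.3% of clustered (59.3 to 65.3%), 63.3% of intermediate and 60.7% of isolated regions (57.6 to 63.8%), and these intervals overlap. The WOC shares were 55.1% of clustered (52.1 to 58.2%), 60.2% of intermediate and 58.7% of isolated regions (55.5 to 61.8%), and for Z4 they were 44.3% (41.3 to 47.4%), 52.6% and 49.1% (45.9 to 52.3%). Counting a region of the other list within 500 bases, Dsk2 was near 74.95% of clustered (72.2 to 77.5%) and 66.6% of isolated regions (63.5 to 69.5%), WOC near 73.0% (70.2 to 75.6%) and 68.0% (64.97 to 71.0%), Z4 near 70.6% (67.7 to 73.3%) and 63.0% (59.9 to 66.1%), and ROW near 79.5% (76.9 to 81.9%) and 64.1% (60.9 to 67.1%). For WOC and Z4 the direction was thus the opposite of that by shared bases. These comparisons between regions of 1 library have no replicate check.

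**Figure D3:**
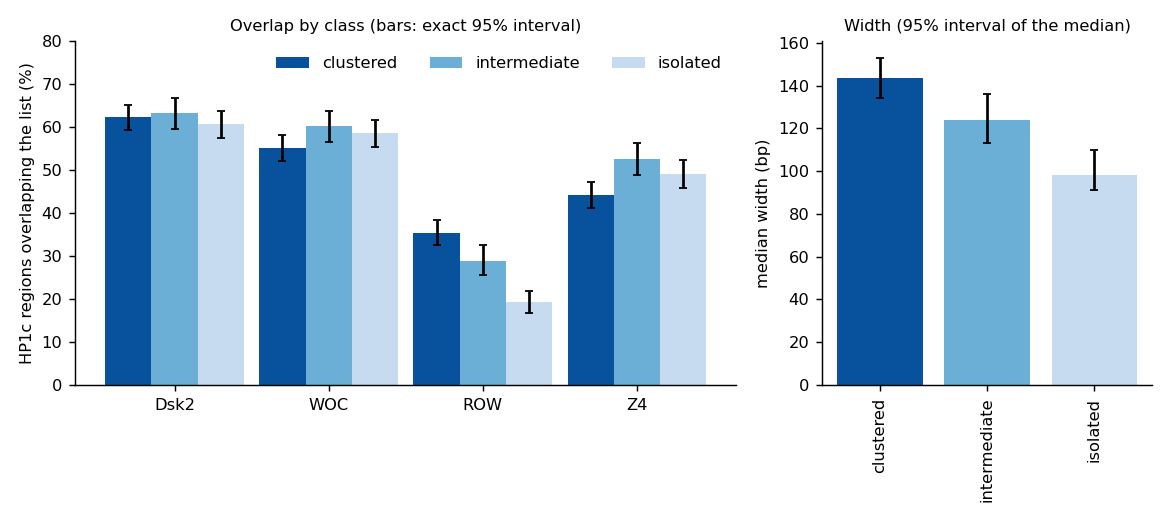
Left, share of HP1c regions overlapping each of the other 4 lists (%) for clustered, intermediate and isolated regions, with exact 95% intervals. Right, median width (bp) of the same classes with its 95% interval. The ROW share is 35.4% for clustered and 19.3% for isolated regions, and the Dsk2 share lies between 60.7% and 63.3% by shared bases.

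The ROW share was lower, though not at every step, the farther away the nearest HP1c region lay. It was 38.5% where the nearest HP1c region was 300 to 499 bases away, 38.2% at 500 to 999 bases and 27.3% at 1000 to 2000 bases. Farther out it was 33.1% at 2001 to 5000 bases, 24.1% at 5001 to 10000 bases, 20.1% at 10001 to 20000 bases, 21.4% at 20001 to 50000 bases and 15.1% beyond. The Dsk2 share moved between 57.4% and 66.9% over the same 8 classes.

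All 5 large arms had the same direction. On X, ROW overlapped 24.6% of clustered and 11.0% of isolated HP1c regions, on 2L 35.8% and 18.9%, on 2R 40.1% and 27.5%, on 3L 34.5% and 19.1%, and on 3R 39.3% and 20.7%. The differences thus ranged from 12.6 percentage points on 2R to 18.6 on 3R. For Dsk2 the difference between clustered and isolated regions was 13.4 points on X, 6.44 on 2L, 1.98 on 3R, -2.33 on 3L and -4.16 on 2R, so its direction was not shared by the arms.

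Isolated regions more often carried Dsk2, WOC and Z4 without ROW. This combination was found at 11.5% of clustered (9.62 to 13.6%), 22.0% of intermediate and 26.5% of isolated regions (23.7 to 29.4%). All 4 lists together were found at 23.6% of clustered (21.1 to 26.3%) and 13.7% of isolated regions (11.6 to 16.0%). The share with no other list was 27.3% of clustered (24.7 to 30.1%) and 30.0% of isolated regions (27.1 to 33.0%).

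Clustered HP1c regions were also wider. Their median width was 143.5 bp (134 to 153 bp), against 124 bp for intermediate and 98 bp for isolated regions (91 to 110 bp). Regions under 50 bp made up 26.9% of clustered and 34.3% of isolated regions, and regions of 500 bp or more 8.16% and 3.53%. The difference of medians between clustered and isolated regions was 50 bp on X, 37 bp on 2L, 35.5 bp on 2R, 50.5 bp on 3L and 43.5 bp on 3R. Of the 19 regions of 1000 bp or more, 68.4% were clustered and 15.8% isolated, and of those of 50 to 99 bp 30.8% and 39.7%.

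The ROW share was higher in clustered regions in each of 5 width classes, but only under 50 bp did the intervals not overlap. Among HP1c regions under 50 bp, ROW overlapped 33.2% of the 283 clustered (27.8 to 39.0%) and 11.2% of the 330 isolated ones (8.02 to 15.1%). At 50 to 99 bp it overlapped 26.4% (18.8 to 35.2%) of clustered and 17.3% (11.7 to 24.2%) of isolated regions. The shares at 100 to 199 bp were 26.9% (21.8 to 32.4%) of clustered and 19.0% (14.5 to 24.3%) of isolated regions. At 200 to 499 bp they were 40.9% (35.1 to 46.9%) of clustered and 31.7% (24.9 to 39.0%) of isolated regions. Regions of 500 bp and over, of which only 34 were isolated, had 65.1% (54.1 to 75.1%) of clustered and 44.1% (27.2 to 62.1%) of isolated regions. Dsk2 overlapped 56.9% of clustered and 60.6% of isolated regions under 50 bp, and 94.2% and 94.1% of those of 500 bp and over.

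Between neighbouring HP1c regions of a cluster the coverage by ROW was higher than at the HP1c regions themselves, and that by Dsk2 and WOC was lower. Over the 610 gaps of at most 2000 bases, ROW regions covered 49.0% of gap midpoints (45.0 to 53.1%), against 29.5% of the midpoints of the HP1c regions on both sides (27.0 to 32.2%). Dsk2 covered 23.1% of gap midpoints (19.8 to 26.7%) and 55.6% of HP1c midpoints (52.7 to 58.4%), and WOC covered 20.5% and 47.4%. Z4 covered 30.2% of gap midpoints (26.5 to 34.0%) and 33.0% of HP1c midpoints (30.4 to 35.8%).

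The pattern differed with the length of the gap. In gaps of 300 to 499 bases ROW covered 45.6% of gap midpoints and 34.6% of HP1c midpoints, in gaps of 500 to 999 bases 55.7% and 30.5%, and in gaps of 1000 to 2000 bases 44.4% and 23.0%. In gaps of 2001 to 5000 bases the order turned round, with 23.1% of gap midpoints and 27.3% of HP1c midpoints. Dsk2 covered 49.2%, 17.1% and 3.21% of gap midpoints in gaps of 300 to 499, 500 to 999 and 1000 to 2000 bases. Single Dsk2 regions reaching from one HP1c region to the next were found at 82 of the 195 shortest gaps (42.1%) and at 2 of the 187 gaps of 1000 to 2000 bases, and single ROW regions at 32 and 15 of them. Only a region wider than the gap can reach across it. Of Dsk2 regions 14.8% measured 500 bp or more, and of ROW regions 30.1%. The fall with gap length, and the contrast of Dsk2 with ROW, therefore depend on region width.

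The higher ROW coverage was on both sides of the HP1c regions, inside and outside a cluster. In the 327 clusters of 2, ROW covered 40.1% of gap midpoints (34.7 to 45.6%), against 34.6% of positions at the same distance outward from the cluster's outer edges (30.9 to 38.3%) and 25.5% of HP1c midpoints (22.2 to 29.1%). Dsk2 covered 24.8% of gap midpoints (20.2 to 29.8%), against 7.80% of the outer positions (5.86 to 10.1%), and WOC 22.9% against 7.95%. Z4 covered 30.3% of gap midpoints and 23.7% of the outer positions. By arm, ROW at gap midpoints exceeded ROW at HP1c midpoints by 13.6 points on X, 23.1 on 2L, 19.9 on 2R, 21.2 on 3L and 20.7 on 3R.

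**Figure D4:**
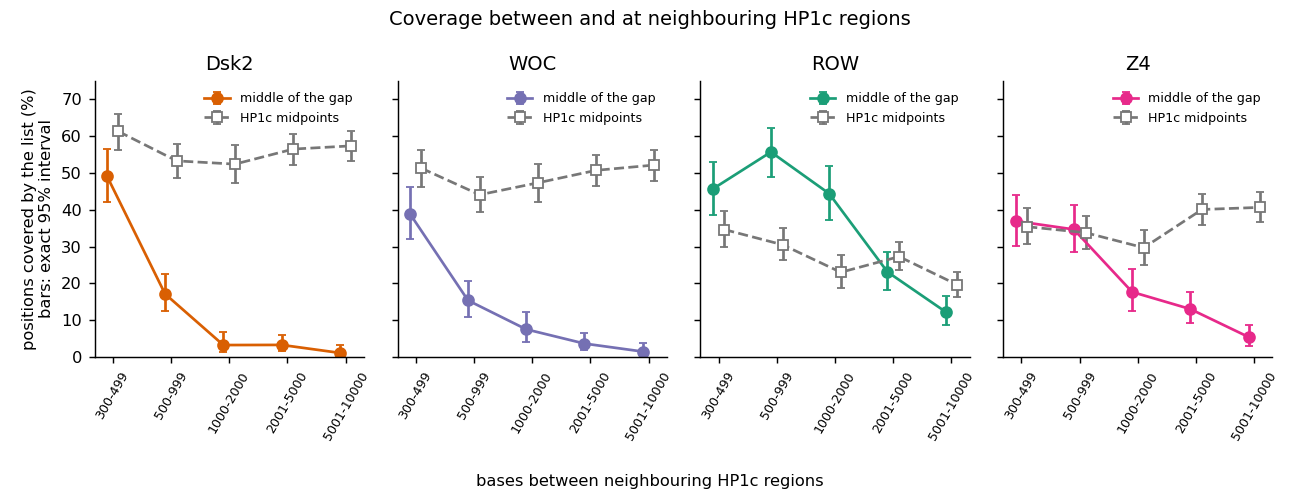
Share of gap midpoints (filled circles) and of the midpoints of the 2 flanking HP1c regions (open squares) covered by each of the other 4 lists (%), by the number of bases between the HP1c regions, with exact 95% intervals. A region flanking 2 gaps is counted at each. ROW covers more gap midpoints than HP1c midpoints up to 2000 bases (55.7% and 30.5% at 500 to 999 bases), whereas Dsk2 and WOC cover fewer at every gap length.

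Of the HP1c regions 2666 (98.3%) lay on the 5 large arms. Density was highest on 2R, with 25.9 regions per Mb (23.8 to 28.2), followed by 24.6 on 3R (22.8 to 26.5), 21.2 on X (19.3 to 23.2), 20.9 on 3L (19.1 to 22.8) and 19.6 on 2L (17.8 to 21.5). The intervals of X, 3L and 2L overlap, as do those of 2R and 3R. The ratio of 2R to 2L was 1.32 (1.17 to 1.503), and counting each cluster once it was 1.26. In covered length the order was similar, from 4.87 kb per Mb on 2R and 4.37 on 3R to 3.53 on 2L, 3.41 on X and 3.36 on 3L.

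Relative to the other lists, HP1c was not equally frequent on all arms. There were 61.7 HP1c regions for each 100 Dsk2 regions on 2R, 61.5 on 3R, 58.6 on 3L, 53.5 on 2L and 52.8 on X. For each 100 ROW regions there were 33.5 HP1c regions on X, 31.5 on 3R, 29.0 on 2R, 28.5 on 2L and 28.4 on 3L. Among HP1c regions, overlap with ROW was lowest on X (19.8%) and highest on 2R (33.8%), while overlap with Dsk2 ranged from 57.7% on 3L to 65.9% on 2L. ROW regions themselves were sparsest on X, with 63.1 per Mb, and densest on 2R, with 89.2 per Mb. Both the ROW overlap and the number of HP1c regions for each 100 ROW regions depend on this density.

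For the density along the arms, each arm was divided into 5 parts of equal length, numbered from the telomere. On 2R part 4 held 171 regions, 40.5 per Mb (34.6 to 47.0), while the other parts of 2R had 20.1 to 24.6 per Mb. Of the regions in part 4 of 2R, 55.0% were clustered. Part 3 of 3L was the sparsest on any arm, with 11.4 per Mb (8.64 to 14.8), and 28.6% of its regions were clustered. ROW overlapped 8.93% of the 56 HP1c regions there, against 44.4% of the 142 in part 1 of 3L. On X part 1 was the densest, with 27.5 per Mb (22.8 to 32.8), and part 3 the sparsest, with 16.1 (12.6 to 20.2). The parts ranged from 17.9 to 22.9 per Mb on 2L and from 23.1 to 27.1 per Mb on 3R.

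With each arm in 20 segments, the last segment on the centromere side was thinly filled on 3 arms. It held 2 HP1c regions on 3L (1.63 per Mb), 2 on X (1.79 per Mb) and 6 on 2R (5.68 per Mb). On 3R it held 24.4 per Mb, and on 2L 12.2. The densest segment of each arm had 53.0 per Mb on 2R, 50.01 on X, 42.5 on 3L, 42.3 on 3R and 35.7 on 2L.

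**Figure D5:**
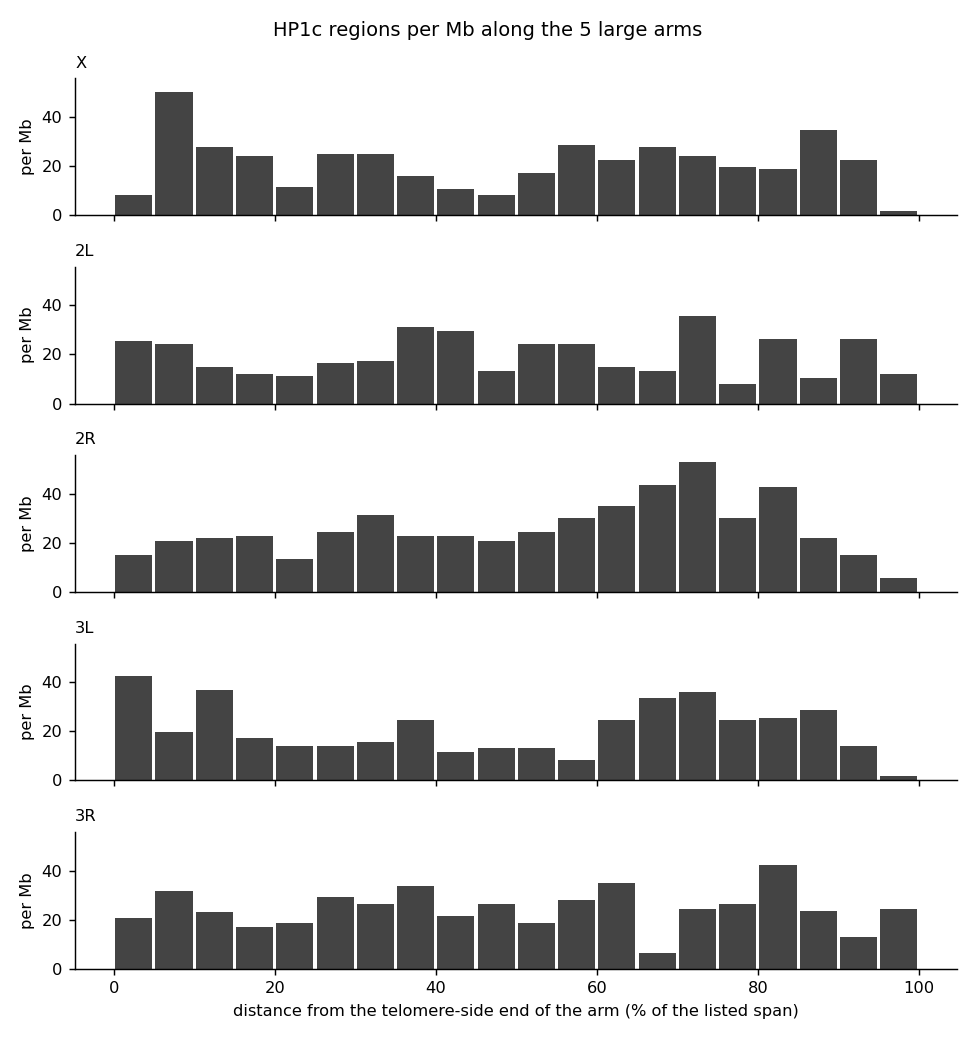
HP1c regions per Mb in 20 equal segments of each of the 5 large arms, from the telomere side (left) to the centromere side (right), as a percent of the span between the outermost regions of any list. The last segment holds 1.79 per Mb on X and 1.63 on 3L, and the tallest bar is 53.0 per Mb on 2R.

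The large arms were also divided into windows of 100 kb. Of 1187 windows, 363 held no HP1c region (30.6%, 28.0 to 33.3%), 232 held 1 and 188 held 2. The mean was 2.24 regions and the variance was 2.84 times the mean. The 119 densest windows held 941 regions, 35.3% of those in windows, and for each other list the same number of its densest windows held 30.3% (Dsk2), 29.1% (WOC), 29.6% (ROW) and 29.4% (Z4). The HP1c list is the shortest, and fewer regions per window raise this share by counting alone. Whether HP1c was more concentrated than the others can therefore not be read from it. Empty windows made up 22.7% of windows on 2R, 25.9% on 3R, 33.5% on X, 34.7% on 3L and 36.2% on 2L. Of the 363 empty windows, 127 held no region of any other list, and 164 held at least 1 Dsk2 region.

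The densest window, on 2R from 6400001 to 6500000, held 17 HP1c regions. They formed 7 separate places, 14 of the regions were clustered, their median width was 219 bp, and all 17 overlapped at least 1 other list (Dsk2 at 12, ROW at 10, WOC at 9 and Z4 at 8). The second, on 3R from 19100001 to 19200000, held 15, among them the widest region of the list, with ROW and Z4 at 12 each. Windows with 13 lay on 2R from 9800001, on 3L from 600001 and on 3R from 5900001. The one on 3L had 11 clustered regions, a median width of 315 bp and no region without another list. The one on 3R had 4 such regions and Z4 at only 2 of 13.

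The remaining 5 of the 10 densest windows held 12 HP1c regions each. They began at 16500001 on 2L, 7500001 on 2R, 5300001 on 3R, and 2100001 and 19700001 on X. In the window on 3R from 5300001, 6 of 12 regions overlapped no other list, although 11 Dsk2, 13 WOC, 28 ROW and 16 Z4 regions lay in it. Median widths in these 5 windows ran from 122.5 to 199 bp. Across the 1187 windows, the number of HP1c regions had a Spearman correlation of 0.75 with that of Dsk2 and of WOC, 0.74 with that of ROW and 0.70 with that of Z4. This is a description, as the windows share the same chromatin and mappable sequence for all lists.

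Long stretches without HP1c were not empty of the other proteins, but held fewer of their regions than the arm as a whole for the same length. The longest gap of each large arm, looked up after the data were seen, was 810 kb on 3L (9848953 to 10658563), 715 kb on 2L (20091483 to 20806060), 649 kb on X (21465288 to 22114475), 530 kb on 3R (1649223 to 2179151) and 440 kb on 2R (18824572 to 19264585). The one on 2L held 19 Dsk2, 22 WOC, 38 ROW and 29 Z4 regions, and that on 3L held 16, 20, 28 and 24. The one on X held 7 Dsk2, 13 WOC, 12 ROW and 12 Z4 regions, that on 3R 6, 8, 13 and 8, and that on 2R 8, 9, 10 and 8. Over the whole arm there were 40.1 Dsk2 and 63.1 ROW regions per Mb on X, and 36.6 and 68.6 on 2L. Each gap held fewer regions of each list than its length would at the mean density of its arm. The gaps were picked for their lack of HP1c, however, and 62.0% of all HP1c regions overlapped Dsk2. A lower number of other regions can follow from this choice alone, so no conclusion is drawn from it.

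The 5 most isolated HP1c regions of the large arms measured 1 to 230 bp. The farthest from any other was a 1 bp region at 24021526 on 3L, 689 kb from its neighbour, which overlapped Dsk2, WOC and Z4. The next was 78 bp on X (22114476 to 22114553, 649 kb) and overlapped no list. On 2L a region of 230 bp (20091253 to 20091482, 327 kb) overlapped Dsk2, WOC and Z4. On 3R they were a region of 94 bp (2534705 to 2534798, 298 kb) with WOC and Z4, and one of 7 bp (8838273 to 8838279, 292 kb) with none. ROW overlapped none of the 5, beside a ROW share of 15.1% among all HP1c regions over 50000 bases from the next.

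Outside the large arms the list held 45 HP1c regions, of which 40 overlapped Dsk2 and 4 overlapped no list. For comparison, among all 2711 HP1c regions Dsk2 overlapped 62.0%, WOC 57.7%, ROW 28.0% and Z4 48.1%. Chromosome 4, the small autosome rich in heterochromatin, had 10, none of them clustered, with a median width of 44.5 bp. Dsk2 and WOC together overlapped 7 of them, at 200053, 226592, 230842, 335475, 691640, 887692 and 1272385 (start positions), and Z4 overlapped the first 6 of these. The other 3, of 170 bp from 522268, 133 bp from 577887 and 1 bp at 1260880, overlapped no list. ROW, which had 67 regions on the chromosome, overlapped none of the 10. Of these 10, 8 were isolated, and the ROW share among all isolated HP1c regions was only 19.3%.

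The assembled heterochromatin sequences held 10 HP1c regions, and Z4 overlapped all of them. Those on 2LHet were 424 bp from 32875, 254 bp from 34558 and 97 bp from 169121, and the first 2 formed the only cluster in heterochromatin sequence and overlapped all 4 lists. On 2RHet there was 1 region of 2 bp from 471827. Those on 3LHet were 70 bp from 601419, 111 bp from 1396859, 95 bp from 2397662 and 12 bp from 2409737. Each of these 5 overlapped Dsk2, WOC and Z4 but not ROW. On 3RHet 45 bp from 1706132 overlapped the same 3 lists, and 16 bp from 1823860 overlapped ROW and Z4 alone.

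Unplaced sequence held 22 HP1c regions, 4 on U and 18 on Uextra. On U they were 34 bp from 5288435 and 11 bp from 5630995, both with Dsk2 alone, 421 bp from 7544635 with all 4 lists, and 194 bp from 9143021 with Dsk2, WOC and Z4. On Uextra 16 of 18 were at least 100 bp wide and 17 overlapped Dsk2, while ROW overlapped 2. Unplaced sequence is a string of fragments of unknown place, much of it repetitive, so distances along it have no chromosomal meaning. The mitochondrial genome, which lies outside the nucleus, carried 3 regions of 34, 511 and 180 bp, all overlapped by Dsk2, which shares the input, and 2 of them by Z4. Neither WOC nor ROW had a region there. Read numbers on these sequences in the input were not analysed here.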

How the data were processed

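Chromatin immunoprecipitation followed by sequencing measured where HP1c and 4 other proteins lay in S2 cells. The deposited files hold other values than counts, namely start and end positions of called regions. Per the series' design text the authors called regions against input. The genome build dm3 and the tools Bowtie 0.12.5, FastQC 0.9.3 and CASAVA 1.8 are named in the submitters' processing notes. The sources used here do not give the caller, its threshold or the treatment of duplicates.

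Groups were taken from the labels. Width was end minus start plus 1, since 50 HP1c regions have equal start and end. The sources do not say from which number positions are counted, which leaves an uncertainty of 1 bp. Overlap means at least 1 shared base. Windows of 100 kb tiled each large arm and counted region midpoints, and arm spans ran between the outermost positions of any list. Intervals of shares are exact binomial, of densities exact Poisson, and of medians from binomial ranks. The range after a difference was formed from the opposite ends of the 2 intervals. Named regions were the 10 widest, the 10 densest windows, the 5 clusters with most regions, the 5 farthest from a neighbour, the 5 widest isolated ones, and those on any other sequence with 10 or fewer. The members and lists were chosen with earlier results of these data known. The coordinate functions were tested on simulated data. Genes and region sequences were not analysed here, because the gene table used is not of the dm3 build. Tools were SciPy 1.17.1, pandas 2.3.3 and NumPy 2.4.6 under Python 3.11.15, with matplotlib 3.10.9 for plots.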

Additional observations from a re-analysis of the deposited data

How the results depend on the processing

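Of 42 alternatives, 31 left a value within its 95% interval, or a count within 1.5 times, 11 moved it and none reversed its sign. The differences in WOC and Z4 between clustered and isolated regions were not among the values varied. Both turned from negative to positive when a region within 500 bases counted in place of a shared base. For a difference, the range formed from 2 intervals took the place of the 95% interval. Only differences could change sign, because widths, gaps, shares, counts and the ratio of arms are never negative. Keeping only regions of at least 50 bp moved the median width to 172 bp, the median gap to 20156 bases, the clustered share to 32.3%, the isolated share to 42.1% and the share of empty windows to 40.3%, as fewer regions remain. Clustered regions made up 28.5% with a linking distance of 1000 bases and 52.8% with 5000 bases. Isolated regions made up 47.2% with a free distance of 5000 bases and 23.0% with 20000 bases. The difference in the share with Dsk2 between clustered and isolated regions, 1.59 points (-4.52 to 7.69), was 8.39 points (2.68 to 14.1) when a Dsk2 region within 500 bases counted, for which the cause was not tested. That in ROW stayed between 13.2 and 19.0 points under its 6 alternatives. The excess of ROW at gap midpoints was 12.1 points, against 19.5 points, when gaps up to 5000 bases entered. The 5 large arms alone, and the comparisons of ROW, of gap midpoints and of equal-length lists, were added after the data were seen. No paired analysis was possible because each protein had 1 library. Without region heights or read numbers, depth cannot be weighed.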
